A study of Mus musculus with 2 samples.

Results

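Cholesterol and fatty acid synthesis in granulocyte-monocyte progenitors (GMP) was described through 33 genes. They were taken by symbol from a given list of pathway enzymes and their sterol-sensing regulators. No cut on their values was applied, but the list was chosen with earlier results of these data known. All 33 matched a row among the 21474 protein-coding genes of the deposited gene tables. GMP are bone marrow progenitors that give rise to neutrophils, monocytes and macrophages. The only group was total RNA of GMP from male C57BL/6J mice, adult at 5 to 6 weeks, with no treatment or genotype difference named. It held 2 libraries from pools of 100 cells, with added spike-in RNA, called replicate 1 and replicate 2 by their biological replicate numbers. Both carry the same donor identifier and nothing in the labels names separate animals, so each spread below is between these libraries and may be technical. With 1 group, no condition was compared and no gene was tested.

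Cholesterol is built from acetyl-CoA through mevalonate and isoprenoid units to squalene, which is closed into a ring and trimmed to the finished sterol. Fatty acids are built from the same precursor by acetyl-CoA carboxylase and fatty acid synthase, then lengthened and desaturated. Both routes are controlled by the SREBP transcription factors, which the escort protein SCAP carries from the endoplasmic reticulum for cleavage when sterol is low and which INSIG proteins hold back when sterol is plentiful. Dividing progenitors need both products for membranes.

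Replicate 1 held 40509954 expected counts and replicate 2 held 35675702. The members took 42232 and 41440 of these, which was 0.196% and 0.217% of the counts on protein-coding genes. Of 10 markers of GMP, 10 stood at 1 TPM or more in both libraries, with a median of 335 TPM. TPM is a level divided by transcript length and scaled to a fixed total, so genes can be compared with each other on it. Markers of other cells differed between the libraries: 8 later neutrophil genes summed to 115 TPM in replicate 1 and 20.9 in replicate 2, and 6 basophil and mast cell genes to 175 and 85.8 TPM. The genes of a list did not differ alike. In the first list Ngp, a granule protein gene, was at 44.66 and 0.88 TPM, but Cxcr2 at 4.14 and 3.77 and Mmp8 at 1.07 and 2.24 TPM. Of its 7 genes at 1 TPM or more on average, 6 were higher in replicate 1 and 1 in replicate 2. In the second list Prss34, a basophil protease gene, was at 44.66 and 1.15 TPM. Its highest genes were Mcpt8 at 59.64 and 38.49 TPM and Cpa3 at 41.53 and 35.86 TPM, and Cma1 was at 0 in both libraries. Ms4a2 was at 21.15 and 10.28 TPM and Fcer1a at 7.91 and 0.06 TPM. All 5 genes of this second list at 1 TPM or more on average were higher in replicate 1, 3 of them over 2-fold. The 9 adipocyte and stroma genes summed to 2.08 and 4.48 TPM, and 7 of them, with Adipoq and Plin1 among them, had 0 counts in both libraries. The 8 macrophage genes summed to 8.38 and 8.55 TPM, and the 7 erythroid genes to 0.370 and 2.02 TPM, with Slc4a1, Alas2 and Hbb-bs at 0. The 6 B cell genes summed to 0.01 and 0.1 TPM and the 4 endothelial genes to 0.570 and 0.350 TPM. Of 6 genes of T and natural killer cells, 5 had 0 counts in both libraries and Nkg7 was at 273.24 and 260.28 TPM. The part of these other cells in the differences between libraries below was not tested.

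The sequences upstream of 3 members are shown because they hold letter strings known from sterol-responsive promoters and from promoters in general. The windows come from RefSeq on GRCm38.p6 and hold up to 250 bases before the annotated start, 5′ to 3′ on the gene's strand, without bases that lie in an annotated exon. Capitals mark matches, on either strand, to the sterol regulatory element TCACNCCAC, the E-box CACGTG, the CCAAT box CCAAT and the GC box GGGCGG. They are Hmgcs1 at chr13:119690101-119690350 on the plus strand, Insig1 at chr5:28071162-28071362 on the plus strand and Fasn at chr11:120824548-120824797 on the minus strand.
Hmgcs1: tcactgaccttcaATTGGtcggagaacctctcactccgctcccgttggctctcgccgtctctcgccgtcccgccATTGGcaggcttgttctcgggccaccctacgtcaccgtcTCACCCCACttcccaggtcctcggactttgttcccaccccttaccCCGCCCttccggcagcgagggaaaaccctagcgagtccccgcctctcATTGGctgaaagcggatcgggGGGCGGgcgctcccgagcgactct
Insig1: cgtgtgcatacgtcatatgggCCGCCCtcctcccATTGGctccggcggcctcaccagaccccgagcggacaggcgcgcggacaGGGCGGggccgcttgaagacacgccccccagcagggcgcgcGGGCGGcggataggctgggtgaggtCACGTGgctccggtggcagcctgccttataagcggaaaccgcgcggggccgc
Fasn: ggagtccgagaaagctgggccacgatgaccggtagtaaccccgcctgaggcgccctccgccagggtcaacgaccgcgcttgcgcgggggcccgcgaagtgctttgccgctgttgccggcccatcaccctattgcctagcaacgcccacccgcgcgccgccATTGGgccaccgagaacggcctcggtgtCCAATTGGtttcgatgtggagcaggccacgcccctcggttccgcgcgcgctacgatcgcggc
The Hmgcs1 window held 1 sterol regulatory element, 3 CCAAT boxes and 2 GC boxes. The Insig1 window held 1 E-box, 1 CCAAT box and 3 GC boxes. The Fasn window held 3 CCAAT boxes, of which a pair on opposite strands overlap, and no match to the other motifs. A match is a string of letters and not a shown binding site.

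Windows were present for 27 members, 36 windows in all because some genes have several starts. The other 6, Fdps, Fdft1, Sqle, Scd1, Scd2 and Fads1, had no window and were not searched. The sterol regulatory element string was in 1 of the 36 (2.78%), against 1.05% of all 32851 mouse windows and 0.996% of the 10442 windows of protein-coding genes detected in both libraries at 1 TPM or more on average. The E-box string was in 6 (16.7%), those of Scap, Insig1, Hsd17b7, Sc5d, Dhcr7 and Elovl5, against 6.02% of all windows and 8.49% of the windows of detected genes. CCAAT was in 22 (61.1%), against 33.8% and 35.8%. The GC box string was in 26 (72.2%), against 32.7% of all windows but 58.5% of those of detected genes. These shares are descriptions, and several windows of 1 gene overlap.

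**Figure D1:**
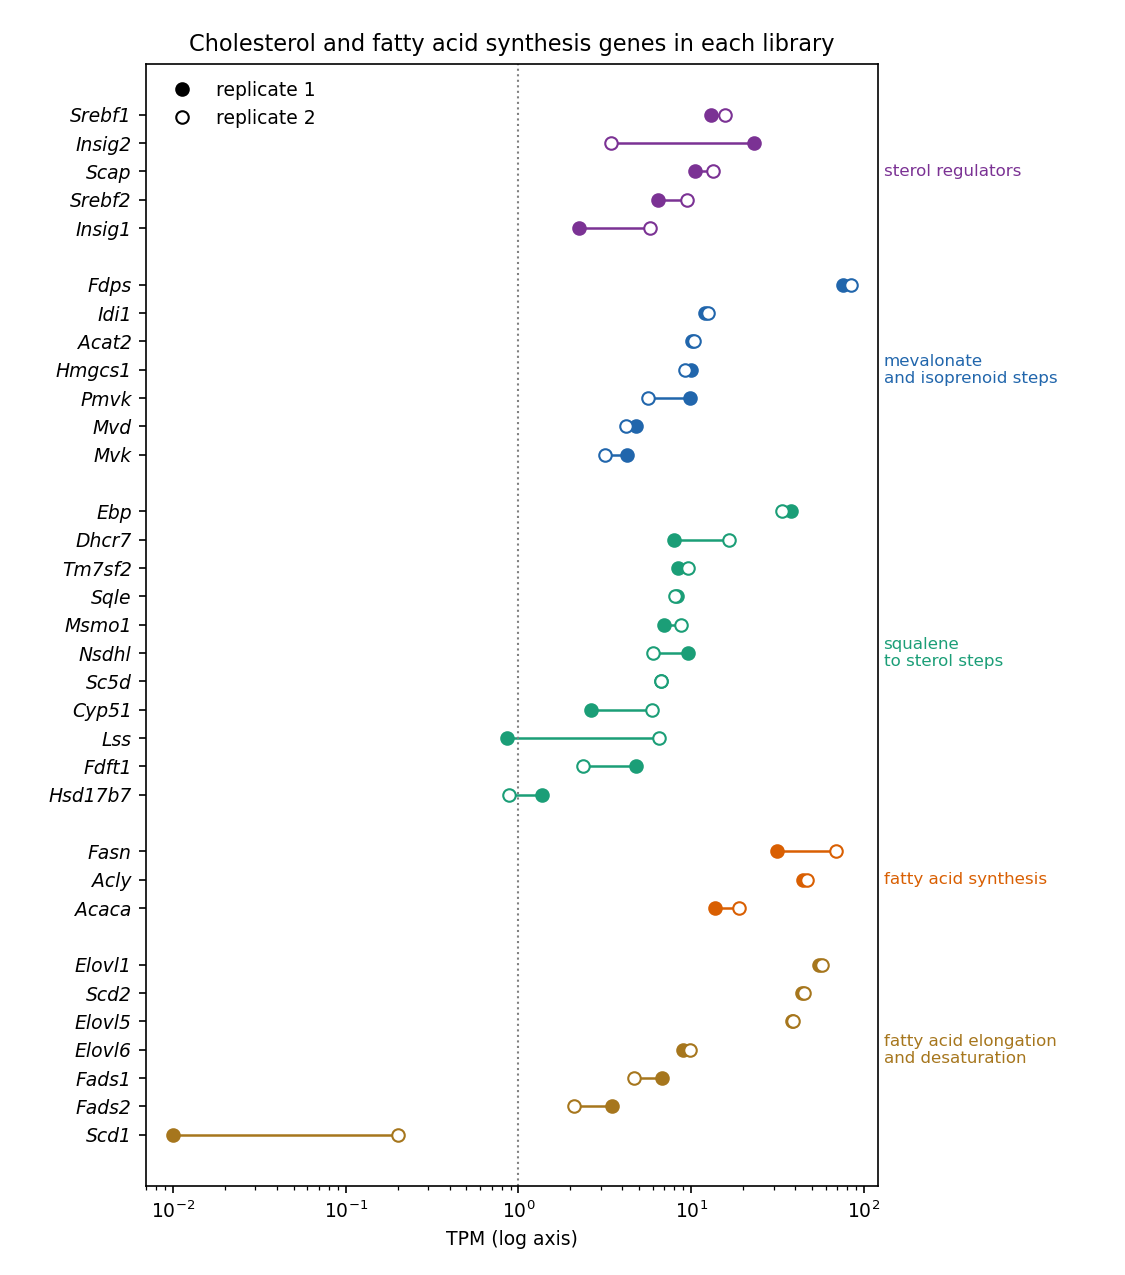
TPM of each of the 33 members in replicate 1 (filled points) and replicate 2 (open points) on a log axis, joined by a line and grouped by role; the dotted line is 1 TPM. Fdps is the highest member at 76.04 and 84.08 TPM, Scd1 the lowest at 0.01 and 0.20, and the long lines of Insig2 and Lss show their distance between libraries.

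Nearly all of the listed genes were detected. Of the 33 members, 30 stood at 1 TPM or more in both libraries (90.9%), against 45.6% of all protein-coding genes. The exceptions were Lss, Hsd17b7 and Scd1. The members were of middling level: their median was 9.00 TPM, against 0.550 TPM over all protein-coding genes and 13.3 TPM over those at 1 TPM or more on average. The 3 fatty acid synthesis genes had the highest median of the roles, 45.8 TPM, followed by 12.0 TPM for the 5 sterol regulators, 9.60 TPM for the 7 mevalonate and isoprenoid genes, 9.37 TPM for the 7 elongation and desaturation genes and 7.82 TPM for the 11 genes from squalene to sterol. This order held in replicate 1 but not in full in replicate 2. Elongation and desaturation stood at 8.95 TPM in replicate 1, below the regulators at 10.6 TPM. In replicate 2 they stood at 9.79 TPM, above the regulators at 9.49 TPM and the mevalonate and isoprenoid genes at 9.16 TPM. Fatty acid synthesis was first and squalene to sterol last in both libraries. The summed level was 524 and 575 TPM. In such bulk RNA, fewer cells of a type and less RNA per cell cannot be told apart.

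Among the regulators, Srebf1, which encodes the SREBP-1 factors of fatty acid genes, stood at 13.00 TPM in replicate 1 against 15.65 TPM in replicate 2. Srebf2, which encodes the SREBP-2 factor of cholesterol genes, was at 6.39 and 9.49 TPM. Both were higher in replicate 2, and Srebf2 made up 33% and 37.7% of the TPM of the pair. By expected counts, which are not divided by length, it made up 59.1% and 57.9%. The Srebf1 level rests in part on a short transcript: Srebf1-204, a processed transcript of 367 bases, took 55.66% and 30.35% of its TPM from 44.27 and 26.29 counts, while the long coding Srebf1-201 took 29.98% and 34.47% from 473.96 and 585.67 counts. On protein-coding transcripts alone Srebf1 was at 4.71 and 7.51 TPM, below Srebf2 in both libraries, so the order of the factors depends on whether the transcripts not typed protein-coding are counted.

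Scap, the sterol-sensing escort, was at 10.56 and 13.37 TPM. The INSIG genes, whose proteins retain the SCAP complex, did not hold their order. Insig1 (chr5:28071363-28078662, plus strand) was at 2.23 and 5.81 TPM, from 166 and 387 counts on its 1 transcript. Insig2 (chr1:121304353-121332589, minus strand) was at 23.17 and 3.43 TPM, from 449 and 191 counts. Insig2 made up 91.2% of the TPM of the pair in replicate 1 and 37.1% in replicate 2, and 73.0% and 33% of its counts. In replicate 1 the retained-intron transcripts Insig2-206 (334 bases) and Insig2-205 (465 bases) took 42.12% and 35.35% of the gene's TPM, and both were at 0 in replicate 2. The coding transcript Insig2-201 was at 4.18 and 2.75 TPM, so the library order of Insig2 was the same on it and the distance smaller.

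Of the mevalonate steps, Acat2, which joins acetyl-CoA units, was at 10.17 and 10.34 TPM, and Hmgcs1, which makes HMG-CoA, at 10.05 and 9.16 TPM. Mvk, the mevalonate kinase, was at 4.25 and 3.17 TPM. Pmvk, which adds the next phosphate, was at 9.91 and 5.63 TPM, and Mvd, the decarboxylase that yields isopentenyl diphosphate, at 4.79 and 4.21 TPM. Both kinases were lower in replicate 2 on the TPM scale, but Mvk was higher there in scaled counts. Idi1, the isomerase of that unit, was at 11.96 and 12.54 TPM. Fdps, which joins the units into farnesyl diphosphate for both sterols and prenylated proteins, was at 76.04 and 84.08 TPM (80.1 ± 5.69, SD, n = 2), from 2414.02 and 2388.19 counts. It was the highest member and stood above 96.2% of protein-coding genes.

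The Mvk values rest on few counts. It had 54 counts in replicate 1 and 93 in replicate 2, and its effective length, the mean length over which the TPM is computed, was 432.54 and 1121.02 bases. Scaled counts were thus higher in replicate 2 (log2 ratio 0.89 with TMM, a scaling of library totals by edgeR) while TPM was lower (log2 ratio -0.42). The short coding transcript Mvk-207 took 85.86% of the TPM in replicate 1 and 0% in replicate 2, where Mvk-206 took 63.92%.

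The genes that turn farnesyl diphosphate into cholesterol had a median below that of the preceding steps. Fdft1, the squalene synthase at the committed step, was at 4.77 and 2.36 TPM, from 378 and 167 counts. Sqle, the squalene epoxidase and a control point of the route, was steady at 8.23 and 8.09 TPM. Lss, which closes the ring to lanosterol, was at 0.86 and 6.53 TPM. Cyp51, the lanosterol demethylase, was at 2.63 and 5.94 TPM. Around the ring closure, then, Fdft1 was higher in replicate 1 while Lss and Cyp51 were higher in replicate 2.

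Tm7sf2, a sterol reductase, was at 8.41 and 9.59 TPM, and Msmo1, the methylsterol oxidase, at 6.98 and 8.68 TPM. Nsdhl, which removes the carboxyl group left by that oxidation, was at 9.65 and 5.98 TPM, and Hsd17b7, the keto-reductase of the same step, at 1.37 and 0.88 TPM. Nsdhl and Hsd17b7 were both higher in replicate 1, also in scaled counts. Ebp, the sterol isomerase, was the highest of the 11 at 37.89 and 33.43 TPM. Sc5d, the desaturase, was at 6.70 TPM in both libraries, from 411 and 316 counts. Dhcr7, whose enzyme makes cholesterol from its immediate precursor, was at 7.98 and 16.63 TPM, from 606 and 776 counts.

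In fatty acid synthesis, Acly, which cleaves citrate to supply cytosolic acetyl-CoA, was at 44.49 and 47.15 TPM (45.8 ± 1.88, SD, n = 2). Acaca, the carboxylase that commits acetyl-CoA to the route, was at 13.75 and 18.88 TPM. Fasn, the synthase that makes palmitate, was at 31.39 and 69.31 TPM (50.4 ± 26.8, SD, n = 2). All 3 were higher in replicate 2, and Acaca was the lowest of them in both libraries. By counts, Fasn led the members in replicate 2 with 7359 and was just under Scd2 in replicate 1 with 6606.

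Among elongases, Elovl1, which serves very long saturated chains, was at 55.34 and 57.31 TPM. Elovl5, which lengthens polyunsaturated chains, was at 38.15 and 38.94 TPM, and Elovl6, which lengthens palmitate, at 8.95 and 9.79 TPM. The order of the 3 was the same in both libraries, and Elovl1 made up 54.0% of their TPM in each. The front-end desaturases of polyunsaturated chains were lower, Fads1 at 6.79 and 4.67 TPM and Fads2 at 3.49 and 2.09 TPM, and Fads1 made up 66.1% and 69.1% of that pair. Both were lower in replicate 2, by log2 ratios of -0.54 and -0.74.

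The stearoyl-CoA desaturases, which put the first double bond into saturated chains, differed most between paralogues. Scd2 (chr19:44293674-44306864, plus strand) was at 43.82 and 44.97 TPM, from 6812.98 and 6241.95 counts. Scd1 (chr19:44394455-44407879, minus strand) was at 0.01 and 0.20 TPM, from 2.02 and 24.05 counts. Of the counts of the pair, Scd1 took 0.0293% in replicate 1, with a 95% Wilson interval of 0.00805 to 0.107%. Its share in replicate 2 was 0.383%, with an interval of 0.258 to 0.569%. These intervals cover the counting error of reads only, from rounded expected counts. The labels name no molecular identifiers, so the intervals do not cover the counting of molecules and may be too narrow. The difference between the libraries was not tested. Scd1 was below 1 TPM in both libraries and enters none of the counts of distances between libraries below.

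The pair can be told apart by sequence over much of its length. The coding sequences of Scd1-201 and Scd2-201, 1065 and 1074 bases in GENCODE M21, were 89.6% identical (962 of 1074 aligned columns), with a longest identical run of 147 bases. The stretch of 60 bases with the most differences is shown, coding bases 79 to 138 of Scd1 and 88 to 147 of Scd2, with the 24 differing bases in capitals.
Scd1: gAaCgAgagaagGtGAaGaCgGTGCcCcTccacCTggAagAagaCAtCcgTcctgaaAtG
Scd2: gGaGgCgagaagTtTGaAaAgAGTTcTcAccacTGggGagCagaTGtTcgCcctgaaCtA
Over the whole transcripts, 4.66% of the 50-base words of Scd1-201 and 4.01% of those of Scd2-201 recurred in transcripts of other genes.

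**Figure D2:**
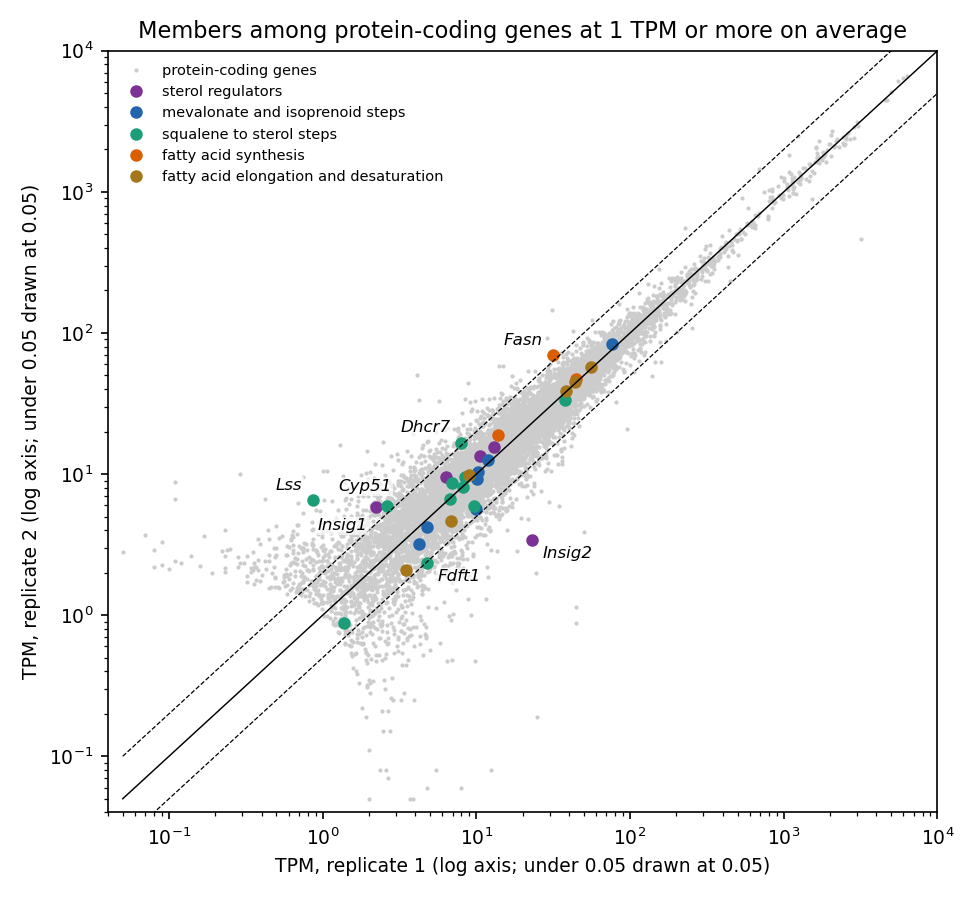
TPM in replicate 1 (horizontal, log axis) against replicate 2 (vertical, log axis) for protein-coding genes at 1 TPM or more on average and above 0 in both libraries (grey) and the 32 members among them (coloured by role); the solid line is equality and the dashed lines are 2-fold. The named members are the 7 over 2-fold apart, 5 above the upper dashed line and 2 below the lower.

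Some members stood at nearly the same level in both libraries and a few lay far apart. Of the 32 members at 1 TPM or more on average, 14 (43.8%) were within 1.2-fold in TPM, with Scd2, Elovl5, Acat2, Sqle and Sc5d at 1.03-fold or less. The same share over all protein-coding genes was not computed, so this count sets the members apart from no other genes. In TMM-scaled counts, Ebp was 1.54-fold and Sc5d 1.21-fold apart, and the others of the 14 were within 1.2-fold. Insig1, Lss, Cyp51, Dhcr7 and Fasn were over 2-fold higher in replicate 2 (5 of 32, 15.6%, against 6.89% of protein-coding genes of that level). Insig2 and Fdft1 were over 2-fold higher in replicate 1 (2 of 32, 6.25%, against 4.94%). The members did not shift as a block: 19 of 32 (59.4%) were higher in replicate 2, against 54.6% of protein-coding genes, and their median log2 ratio was 0.04, against 0.05 (0.01 against 0.00 on TMM-scaled counts). Dhcr7 at 2.08-fold and Fdft1 at 2.02-fold were just past the limit, and Pmvk at 1.76-fold was the nearest below it.

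The largest distances were partly in the length by which the TPM was divided. A TPM ratio is the ratio of counts divided by the ratio of effective lengths, up to a constant for the library. On TMM-scaled counts 4 of 32 members were over 2-fold apart (12.5%, against 9.10% of protein-coding genes), which were Insig1, Insig2, Fdft1 and Lss. Effective length was over 1.5-fold apart for 5 of 32 (15.6%, against 8.22%), which were Insig2, Mvk, Lss, Msmo1 and Fasn. Insig1 and Fdft1, each with 1 transcript, had nearly the same effective length in both libraries, and their distance was in the counts (log2 ratios with TMM of 1.32 and -1.08). Mvk and Msmo1 changed direction with the scale, with Msmo1 at a log2 ratio of 0.31 in TPM and -0.45 in TMM-scaled counts. Idi1 (0.07 and -0.02), Scd2 (0.04 and -0.03) and Elovl5 (0.03 and -0.07) did so too, at small log2 ratios.

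**Figure D3:**
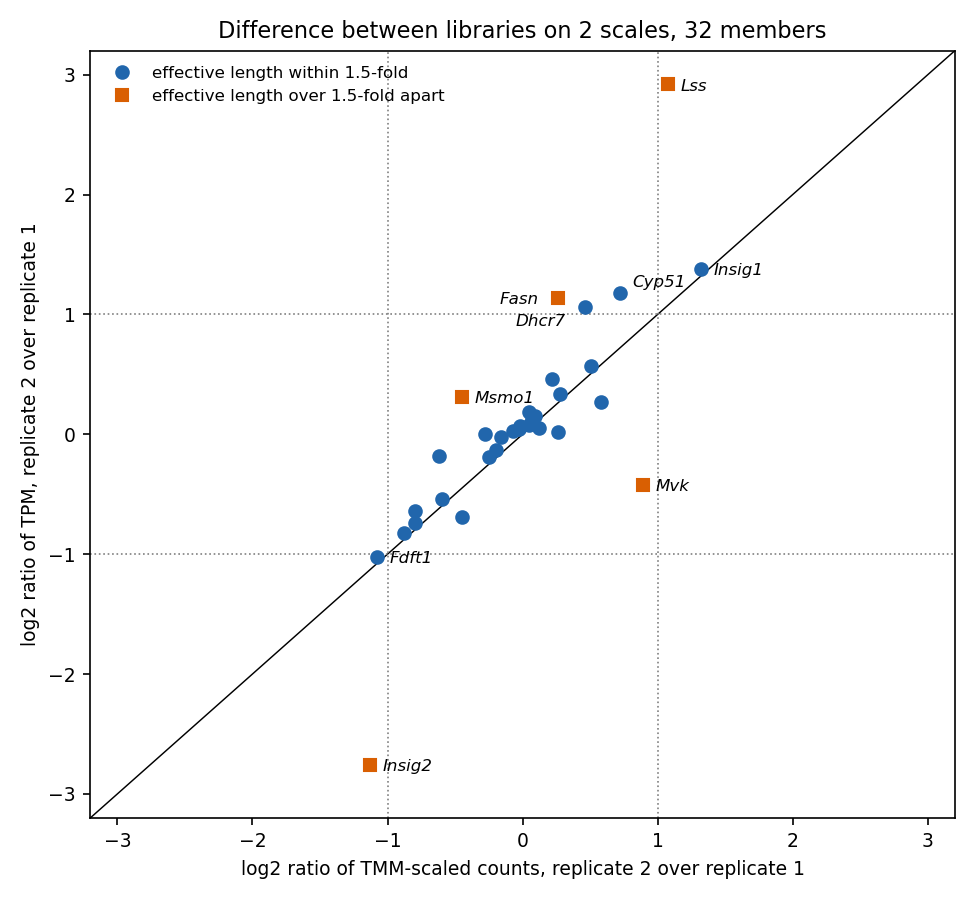
Log2 ratio of replicate 2 over replicate 1 for the 32 members at 1 TPM or more on average, from TMM-scaled counts (horizontal) and from TPM (vertical); the diagonal is equality, dotted lines are 2-fold, and squares mark the 5 members whose effective length was over 1.5-fold apart. Lss and Insig2 lie furthest from 0 in TPM, at 2.92 and -2.76, and much nearer in scaled counts, at 1.08 and -1.13.

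Fasn (chr11:120805846-120824547, minus strand) shows the arithmetic. Its counts were 6606 and 7359, a log2 ratio of 0.26 after TMM scaling, while its effective length was 7163.78 bases in replicate 1 and 4051.18 in replicate 2, and its TPM ratio was 1.14 on the log2 scale. The full-length coding transcript Fasn-201 held 6420.67 and 6585.16 counts and stood at 23.19 and 26.65 TPM. The retained-intron transcript Fasn-202, of 762 bases, held 28.88 and 394.04 counts and stood at 1.63 and 24.86 TPM, and Fasn-203, another of 971 bases, at 6.57 and 17.81 TPM. Protein-coding transcripts thus carried 97.2% and 89.5% of the counts of Fasn but 73.9% and 38.4% of its TPM.

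Lss (chr10:76531588-76557138, plus strand) rests on a different transcript in each library. In replicate 1 its 161 counts lay on the retained-intron transcripts Lss-204 and Lss-207, and none on a coding transcript. In replicate 2 the coding Lss-201 held 192.83 counts (1.63 TPM), Lss-204 held 107.17 (0.60 TPM), and Lss-208, a coding fragment of 314 bases, took 65.87% of the TPM from 18 counts. The retained-intron Lss-204 itself was at 0.67 and 0.60 TPM, close in both.

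**Figure D4:**
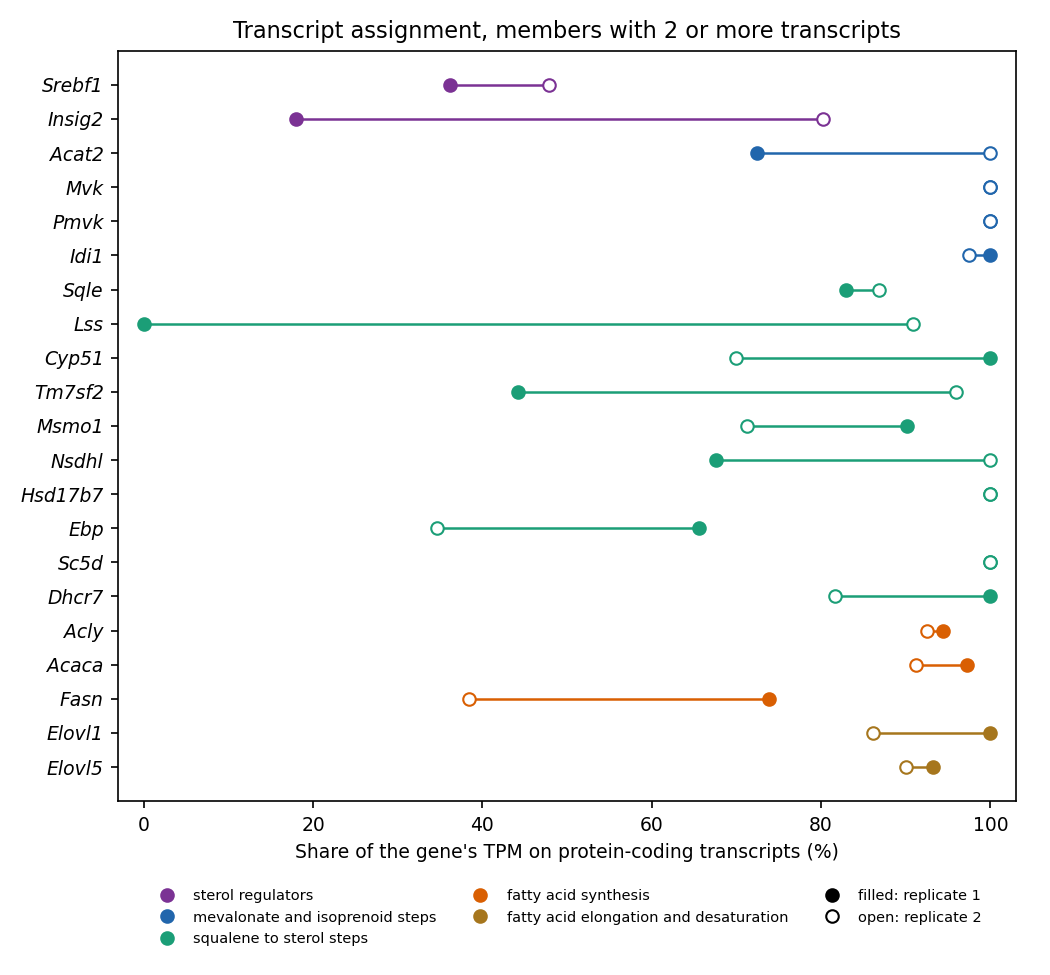
Share of each gene's TPM that lies on transcripts typed protein-coding, in percent, in replicate 1 (filled) and replicate 2 (open), for the 21 members with 2 or more transcripts. Lss moves from 0% to 90.8% and Insig2 from 18.0% to 80.2%, while Fasn moves the other way, from 73.9% to 38.4%, and Acly stays above 90%.

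Of the 21 members with 2 or more transcripts, 12 had a different leading transcript in each library (57.1%). The share was 32.1% of protein-coding genes with 2 or more transcripts, at 1 TPM or more on average and above 0 in both libraries. These shares were not matched for the number of transcripts per gene. Some of the 12 were members with a steady total. Acly was led by Acly-207 in replicate 1 (46.07% of TPM, 10.25% in replicate 2) and by Acly-201 in replicate 2 (44.95%, 17.53% in replicate 1), both coding and of 4162 and 4393 bases. Acaca was led by Acaca-201 (59.50% and 19.00%) and then Acaca-202 (21.24% and 49.46%). Elovl1 was led by Elovl1-203 (44.93% and 21.08%) and then Elovl1-201 (7.30% and 42.89%). Sqle, at nearly equal totals, went from Sqle-202 (71.71% and 0%) to Sqle-201 (11.26% and 86.79%). The gene totals of Acly, Elovl1 and Sqle were within 1.2-fold, so it was the assignment to transcripts that differed more.

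In Ebp, the retained-intron Ebp-202 held 334.75 and 502.39 counts and 34.42% and 65.40% of the TPM, and the coding Ebp-201 held 758.51 counts in replicate 1 and 135.19 in replicate 2. Dhcr7-201 held 73.26% of the Dhcr7 TPM in replicate 1 and 0% in replicate 2, where Dhcr7-202 held 67.42%. In Cyp51 the whole TPM was on coding Cyp51-201 in replicate 1, and a retained-intron transcript, Cyp51-203, took 30.13% in replicate 2 from 36.41 counts. On protein-coding transcripts alone, 5 members were over 2-fold apart: Insig1, Fdft1, Lss, Tm7sf2 and Ebp. The share of all protein-coding genes on this scale was not computed, so whether 5 is many cannot be said. Insig2, Cyp51, Dhcr7 and Fasn were then within 2-fold, with Fasn at a log2 ratio of 0.20.

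Sequence shared with other genes may bear on several levels, since a read from a shared stretch can have more than 1 possible source. By 50-base words in GENCODE M21 transcripts, on either strand, 17 of the 33 leading transcripts shared none and 8 shared over 10%. The same shares over all protein-coding genes were not computed, so these counts set the members apart from no other genes. Fdps, the highest member, shared 82.0% of its words with 8 other genes, 3 of which had a row in the tables with 16.97 and 17.81 counts together, against 2414.02 and 2388.19 for Fdps. Idi1 shared 30.5%, with Gm13502 the most counted at 12.72 and 41.08 counts. Tm7sf2 shared 68.6% of the words of its leading transcript with Vps51, which held 530.73 and 390.55 counts.

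Acat2 shared 45.9%, with Acat3, which was at 0 counts in both libraries, and with Tcp1, and these held 11544 and 9679 counts together. Fdft1 shared 39.8%, mostly with Ctsb at 4516 and 4387 counts, far above the 378 and 167 of Fdft1. Acaca shared 55.4% with Gm5182, a gene without a matching row in the tables. No source used here gives the strand setting of the authors' counting, and the part of these partners in the values of Acat2, Fdft1 and Tm7sf2 was not tested. Expected counts were whole numbers for 28 of the 33 members in both libraries, Acat2, Fdft1 and Acaca among them. The others were Idi1, Fdps, Tm7sf2, Scd1 and Scd2. The share of all protein-coding genes with whole counts was not computed.

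Other genes around these routes were mostly detected too. Of 15 further regulators, 11 stood at 1 TPM or more in both libraries, led by Mlx, a partner of the carbohydrate-response factors, at 38.86 and 36.61 TPM, Nr1h2, an oxysterol receptor, at 26.61 and 29.80 TPM, and Rxrb, its heterodimer partner, at 23.70 and 24.66 TPM. Of 14 genes of isoprenoid branches and precursor supply, 12 did, led by Acat1, a mitochondrial thiolase, at 39.15 and 37.32 TPM, Coq2 of ubiquinone synthesis at 28.42 and 31.64 TPM and Dhdds of dolichol synthesis at 27.29 and 21.81 TPM. Of 15 genes of sterol transport and storage, 12 did. The highest were Npc2, a lysosomal cholesterol carrier, at 58.62 and 65.92 TPM, and Scarb1, a lipoprotein receptor, at 67.96 and 38.53 TPM. Soat1, which esterifies cholesterol, followed at 51.87 and 42.25 TPM. Mlxipl among the regulators, Idi2 among the isoprenoid genes and Ch25h among the sterol transport genes had 0 counts in both libraries.

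Of 27 genes of fatty acid supply, activation and elongation, 6 had 0 counts in both libraries: Me1, Thrsp, Elovl2, Elovl3, Elovl4 and Scd3. Another 16 of the 27 stood at 1 TPM or more in both libraries. They were led by Tecr, the reductase of the elongation cycle, at 166.90 and 174.73 TPM, Fabp5, a fatty acid carrier, at 64.18 and 61.89 TPM and Acsl5, an acyl-CoA synthetase, at 33.99 and 38.34 TPM. All 13 genes of fatty acid oxidation did, with a median of 28.4 TPM, led by Etfb at 257.11 and 241.50 TPM and Etfa at 52.05 and 38.44 TPM, subunits of the electron transfer flavoprotein, with Hadhb of the trifunctional protein between them at 64.41 and 52.09 TPM. These are levels of RNA, and the activity of either route was not measured.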

How the data were processed

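Total RNA-seq was made from pools of 100 GMP in 2 libraries, 1 group, per the labels. The authors deposited expected counts, estimated reads that need not be whole. They also deposited TPM and FPKM, scaled by effective length and library, and percent values that split the TPM of each gene over its transcripts. The tables rest on transcriptome alignments (mm10, annotation M4), per the deposited text files. Aligner, counter and strand setting: not given in the sources used here.

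GENCODE M21, a later annotation of the same assembly, gave symbols, types and spans by Ensembl identifier (42462 rows matched). Transcript models can differ in length between M4 and M21. Means are over 2 libraries. Counts of members stand beside the same counts over protein-coding genes. A fold is the TPM ratio between libraries at 1 TPM or more on average, and a 0 in 1 library counts as over 2-fold. Rounded counts were scaled with edgeR 4.0.16 (TMM) and DESeq2 1.42.0 size factors in R 4.3.3, over 13930 rows with 10 counts or more; no gene was tested. A count is called whole within 0.005. Other steps used Python 3.11.15, pandas 2.3.3, numpy 2.4.6, scipy 1.17.1 and matplotlib 3.10.9. The arithmetic of the fold calls was checked on simulated counts. These held no spread between libraries beyond counting error and no effective lengths, so the check does not cover the TPM distances reported here. The text names all 33 members and the 3 highest genes of each other list; partners in shared sequence, marker genes and examples of transcripts were named after their values were seen. The members and lists were chosen with earlier results of these data known. Alternatives were other units, scalings, filters, pseudocounts and folds, and each library left out.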

Additional observations from a re-analysis of the deposited data

How the results depend on the processing

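Of 51 alternatives to 15 results, none changed the sign of the median log2 ratio, though some changed an order. Of the 51, 23 moved by less than the spread between libraries or, for counts of members, by less than 1.5 times. Of these 23, 16 were among the 24 values with 1 library left out. For paralogue shares that outcome was fixed in advance, since a mean of 2 values always lies within their SD of each. The 23 are therefore no measure of stability. The median member level was 6.57 in FPKM, 14.2 in CPM (counts scaled to the library total, not divided by length), 19.3 with TPM rescaled over protein-coding nuclear genes and 9.18 over members at 1 TPM or more, and 8.95 to 9.16 with 1 library left out. In CPM the role medians were 20.0 for sterol regulators, 14.2 for mevalonate steps, 9.50 for squalene to sterol steps, 130 for fatty acid synthesis and 39.6 for elongation and desaturation, which then passed the regulators. With 1 library left out they were 9.49 to 10.6 TPM, 9.16 to 10, 6.70 to 6.98, 31.4 to 47.2 and 8.95 to 9.79. The fatty acid synthesis median is 31.4 without replicate 2, from Fasn. Members over 2-fold apart numbered 7, or 11 at 1.5-fold, 4 with TMM, 4 with DESeq2 size factors, 3 at 10 TPM or more and 4 on log2(TPM + 1). They numbered 5 on coding transcripts, an alternative chosen after seeing the data. Shares over all protein-coding genes were computed only for the 7 and for the 4 with TMM, and the other counts have none beside them. The median log2 ratio was 0.01 with DESeq2 size factors and 0.08 at 10 TPM or more. By expected counts the share of Srebf2 was 58.5%, so that it led Srebf1 as it did not in TPM, of Fads1 83.6% and of Elovl1 31.1%, where Elovl5 held more counts. The share of Insig2 in its pair was 37.1% without replicate 1, where Insig1 led, and 91.2% without replicate 2. The median leading transcript share was 49.9%, 74.0% by counts, and 65.4 to 72.4% within 1 library. No paired analysis was possible because there was 1 group. Depth limits Scd1, Mvk and Fads2 most, at under 150 counts in each library.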
